A study of Mus musculus with 4 samples.

Results

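Neuregulins and other ligands of the epidermal growth factor (EGF) family, and the ERBB receptors that bind them, were followed across the nucleus classes of the young mouse heart. The 7 genes, taken by symbol from the 32291 features shared by 4 single-nucleus matrices, were 3 ligands (Nrg1, Nrg4 and Hbegf) and 4 receptors (Egfr, Erbb2, Erbb3 and Erbb4). Each ligand of this family carries an EGF-like domain and is usually made as a membrane protein from which proteases release the active part. Ligand binding brings receptors together in pairs, which phosphorylate one another and pass the signal to the PI3 kinase-AKT and RAS-ERK cascades. ERBB2 binds no ligand of its own and acts as a partner, and ERBB3 has little kinase activity. In the heart, neuregulin 1 from endocardial and vessel endothelial cells acts on ERBB4 and ERBB2 in cardiomyocytes, a route needed for trabeculation in the embryo and known for its part in cardiomyocyte growth and division.

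Single-nucleus RNA-seq (snRNA-seq) was made from whole hearts of wild-type (WT) mice at postnatal day 12. At postnatal day 7 the pups received saline (the control arm) or AAV9-cTnT-YAP5SA by injection, and for the next 5 days their dams ate chow or high-fat food (HFD). The virus drives YAP5SA, an active mutant of the Hippo pathway effector YAP, from the cTnT promoter in cardiomyocytes. The 4 groups, 1 library each, were taken from the titles: both controls (chow, HFD) and both YAP5SA libraries (chow, HFD). The sources used here do not say how many hearts went into a library. The treatment labels of the YAP5SA on chow and control on HFD libraries name the other diet, in which case diet and vector would coincide and could not be told apart. Because controls received saline, the virus and its cargo cannot be told apart either. As a check of the labels, Yap1 transcripts in cardiomyocyte-like nuclei were at 137 and 128 CPM in the controls and 107 and 120 CPM with YAP5SA, and whether the vector's YAP is counted there is not stated. Ccn2, a well known YAP target, was at 36.2 and 41.7 CPM in the controls and 362 and 165 CPM with YAP5SA. By Xist and Ddx3y, the YAP5SA on chow library was male and the other 3 were female.

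The libraries held 6977 to 11158 barcodes and 4.34e+07 to 6.12e+07 unique molecular identifiers (UMIs), of which 6048 to 10009 nuclei per library were kept. Library pairs shared 0.158% to 0.372% of barcodes. Clustering was made without the EGF family and receptor genes and gave 26 clusters, and classes were called "X-like" from marker lists. Levels are UMIs of a gene summed over the nuclei of a class in a library, per 1000000 UMIs of that sum (CPM, counts per 1000000). They are not scaled to gene length and are compared between classes and libraries, not between genes. Where a pair of values is given, chow comes first and HFD second. Vector tests set both YAP5SA libraries against both controls with edgeR's quasi-likelihood test over all genes that passed its filter on low counts. A gene "rose" or "fell" where the Benjamini-Hochberg adjusted p was below 0.05. The spread tested is that between the 2 libraries of an arm, which also differ in diet and, in the YAP5SA arm, in sex. Folds for the chow pair and for HFD over chow with YAP5SA also set a male library against a female library. The part of sex was not tested. Intervals cover counting error only.

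The members sit on 6 chromosomes in mm10 (GENCODE vM21), all as protein-coding genes. Nrg1 (ENSMUSG00000062991) spans chr8:31814551-32884029 and Erbb4 (ENSMUSG00000062209) spans chr1:68032186-69108059, both on the minus strand and each over 1000 kb. Egfr (ENSMUSG00000020122, chr11:16752203-16918158) and Erbb2 (ENSMUSG00000062312, chr11:98412470-98437716) lie on the plus strand. Nrg4 (ENSMUSG00000032311, chr9:55220222-55326844) and Erbb3 (ENSMUSG00000018166, chr10:128567523-128589652) lie on the minus strand. YAP binds DNA through TEAD factors, whose sites hold the letters GGAATG. RefSeq promoters, of 250 bases before to 50 bases after a gene's start, were at hand for 4 of the 7 members, and GGAATG was searched on both strands. The letters stood in 1 of these 4, that of Erbb2, once and 88 bases before the start. Of all 32851 RefSeq mouse promoters of this length, 14.7% held them, and a match is a description of the letters, not a site. The promoters of Erbb2 (GRCm38.p6, chr11:98412234-98412533, plus strand) and of Nrg4 (GRCm38.p6, chr9:55283576-55283875, minus strand, within the longer gene) are shown because the first holds the match and the second belongs to a ligand that fell. Capitals mark GGAATG, and the Nrg4 promoter has none.
Erbb2: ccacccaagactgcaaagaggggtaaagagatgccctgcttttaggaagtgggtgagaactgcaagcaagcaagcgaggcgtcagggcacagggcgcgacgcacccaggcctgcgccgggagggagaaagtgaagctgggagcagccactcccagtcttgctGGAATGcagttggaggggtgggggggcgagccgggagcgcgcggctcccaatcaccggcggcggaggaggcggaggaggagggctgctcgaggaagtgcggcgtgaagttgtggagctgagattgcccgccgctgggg
Nrg4: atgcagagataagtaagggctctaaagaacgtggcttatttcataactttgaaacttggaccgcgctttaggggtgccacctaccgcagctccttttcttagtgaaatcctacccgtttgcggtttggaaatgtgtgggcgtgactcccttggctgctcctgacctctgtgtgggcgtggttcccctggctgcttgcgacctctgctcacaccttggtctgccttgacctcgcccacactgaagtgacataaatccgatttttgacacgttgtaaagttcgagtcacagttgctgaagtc

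Of the 7 members, 3 separated a class of their own. Nrg1 was highest in endocardial-like nuclei, Erbb4 in cardiomyocyte-like nuclei and Egfr in fibroblast-like nuclei, and each of these levels in every library was above that in all 6 other classes that had 50 or more nuclei per library. For Nrg1 the lowest endocardial-like level was 1470 CPM and the highest in the 6 other classes 113 CPM. For Erbb4 the lowest cardiomyocyte-like level was 2061 CPM and the highest in the other classes 699 CPM. For Egfr the lowest fibroblast-like level was 447 CPM and the highest in the other classes 299 CPM. In classes with fewer nuclei, Erbb4 reached 1706 CPM (smooth muscle-like) and Nrg1 1355 CPM (Schwann-like, see the last section). Among 14568 genes compared the same way, 1.43% separated the endocardial-like class, 4.63% the cardiomyocyte-like class and 2.22% the fibroblast-like class. Nrg4, Hbegf, Erbb2 and Erbb3 separated none of these 3 classes.

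**Figure D1:**
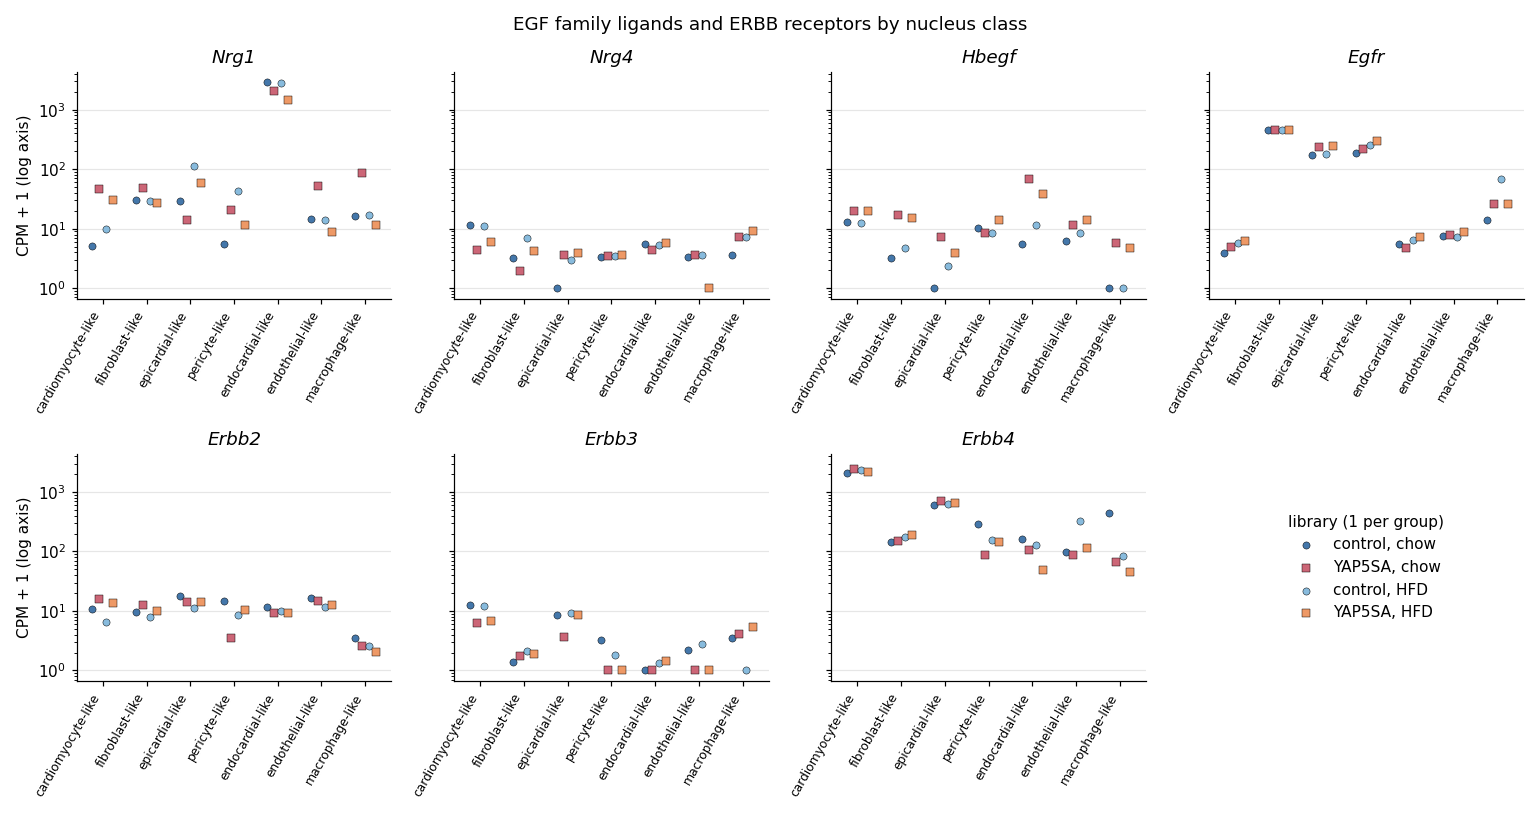
Level of each member (CPM + 1, log axis) in the 7 classes that had 50 or more nuclei per library; each point is 1 library, circles for control and squares for YAP5SA. Nrg1 stands out in endocardial-like nuclei (1470 to 2902 CPM), Erbb4 in cardiomyocyte-like nuclei (2061 to 2391 CPM) and Egfr in fibroblast-like nuclei (447 to 462 CPM).

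Nrg1 encodes neuregulin 1, the ligand of ERBB3 and ERBB4. In endocardial-like nuclei its level was 2902 and 2786 CPM in the controls and 2031 and 1470 CPM in the YAP5SA libraries. Both YAP5SA libraries were below both controls, but the difference did not pass the test (log2 fold change -0.73, SE 0.21, edgeR adjusted p = 0.123). DESeq2 called it (adjusted p = 0.0364), as did edgeR without the YAP5SA on chow library (2.29e-06) or with no filter on low counts (0.000774). The share of endocardial-like nuclei with an Nrg1 UMI was 61.1% and 55.3% in the controls and 40.8% and 38.5% with YAP5SA. With nuclei thinned to 1000 UMIs, the shares were 49.6% and 41.9% in the controls and 33.3% and 30.6% with YAP5SA, in the same order. Summed cardiomyocyte markers in these endocardial-like nuclei also differed, at 4700 and 3254 CPM in the controls and 1323 and 1286 CPM with YAP5SA. Of the 14 markers, 13 were lower in both YAP5SA libraries and none was at 0 in all. The like share of all genes was not computed for this class. The part of these markers in the result was not tested.

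Cardiomyocyte-like nuclei held little Nrg1 in the controls and more with YAP5SA. The level was 4.15 and 9.07 CPM in the controls, from 98 and 190 UMIs, and 45.6 and 29.6 CPM with YAP5SA, from 1261 and 857 UMIs. The groups did not overlap, and Nrg1 rose (log2 fold change 2.45, SE 0.44, edgeR adjusted p = 0.0217). Between single libraries the log2 fold was 3.45 for the chow pair (95% interval 3.16 to 3.77) and 1.71 for the HFD pair (1.48 to 1.94). The call was lost without the YAP5SA on chow library (log2 fold change 1.99, edgeR adjusted p = 0.0502) and with doublets kept (2.12, adjusted p = 0.0593). Of the control on HFD UMIs, 77 came from 1 nucleus.

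Nuclei with an Nrg1 UMI made up 2.13% and 3.20% of cardiomyocyte-like nuclei in the controls and 9.50% and 6.08% with YAP5SA. In vessel endothelial-like nuclei of the same libraries the shares were 1.72% and 2.80% in the controls and 2.15% and 1.28% with YAP5SA, at median depths of 2511.5 to 3489 UMIs against 4862 to 5855.5 in cardiomyocyte-like nuclei. After thinning to 1000 UMIs the cardiomyocyte-like shares were 0.444% and 0.770% in the controls, below the endothelial-like 0.496% and 1.26%. Thinned shares with YAP5SA were 2.80% and 1.64% in cardiomyocyte-like against 1.10% and 1.06% in endothelial-like nuclei.

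Within cardiomyocyte-like nuclei, Nrg1 differed among the 10 clusters. Cluster 25, led by Cemip and Igfbp2, held 109 CPM on chow and 116 CPM on HFD, and all of its 1559 nuclei came from the YAP5SA libraries. It carried 7 of the 14 cardiomyocyte markers, with Myh6, the adult myosin heavy chain, at 152 CPM and Ttn, the sarcomere spring titin, at 4590 CPM. Cluster 14, also almost wholly from YAP5SA, held 34.4 and 39.3 CPM. In cluster 4, led by cell division genes such as Ect2 and Anln and present in all libraries, the level was 3.45 and 8.64 CPM in the controls and 111 and 80.0 CPM with YAP5SA. That cluster had 191 and 105 nuclei in the controls and 257 and 164 with YAP5SA, so the control levels rest on few UMIs. Most control cardiomyocyte-like nuclei were in clusters 5 and 6, with 4.74 and 7.19 CPM over all libraries. Not every cluster rich in YAP5SA nuclei was high. Clusters 8 and 13, drawn to 94.5% and 99.8% from YAP5SA, held 3.30 and 5.75 CPM over all libraries. Cluster 7, drawn to 76.7% from YAP5SA, held 6.24 CPM, and cluster 9, drawn to 59.5%, held 37.2 CPM. Without the 4 clusters drawn to at least 90% from the YAP5SA libraries (8, 13, 14 and 25), Nrg1 still rose (log2 fold change 2.03, edgeR adjusted p = 0.0195).

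**Figure D2:**
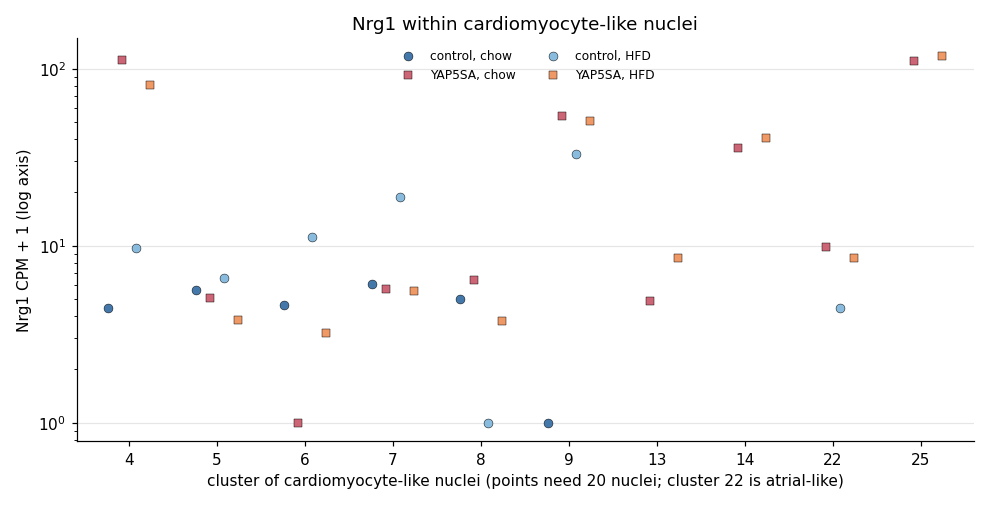
Nrg1 level (CPM + 1, log axis) in each cluster of cardiomyocyte-like nuclei; each point is 1 library with at least 20 nuclei in the cluster, circles for control and squares for YAP5SA. Cluster 25 lies at 109 and 116 CPM and exists in the YAP5SA libraries alone; in cluster 4 the YAP5SA libraries (111 and 80.0 CPM) lie above the controls (3.45 and 8.64 CPM).

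The summed level of endocardial markers in cardiomyocyte-like nuclei was also higher with YAP5SA. The 9 markers summed to 99.3 and 127 CPM in the controls and 252 and 210 CPM with YAP5SA. Of the 9, 5 were higher and 1 was lower in both YAP5SA libraries, and none was at 0 in all. For 58.8% of all genes tested in this class, both YAP5SA libraries likewise lay on one side of both controls. Cdh11, a cadherin, was at 20.3 and 30.7 CPM in the controls and 106 and 83.0 CPM with YAP5SA. Npr3, a natriuretic peptide receptor, was at 8.60 and 12.1 CPM in the controls and 33.7 and 23.5 CPM with YAP5SA, and Gmds at 41.3 and 48.6 CPM against 77.2 and 58.6 CPM. Plvap and Nfatc1 were also higher in both YAP5SA libraries. Tmem108 overlapped between the arms, at 7.33 and 13.5 CPM in the controls and 11.8 and 18.3 CPM with YAP5SA, as did Hapln1. Vwf, the clotting factor of endothelial cells, was lower, at 5.38 and 5.92 CPM in the controls and 4.02 and 4.01 CPM with YAP5SA. Smoc1, a matrix protein, was at 1.53 CPM at the lowest and 2.005 CPM at the highest of the 4 libraries, against 539 CPM in the endocardial-like cluster. Cluster 25 held Cdh11 at 131 CPM, Gmds at 132 CPM and Npr3 at 55.9 CPM, above cluster 5 (21.8, 35.9 and 9.91 CPM), and Vwf at 2.62 CPM and Smoc1 at 1.08 CPM, below it (5.78 and 2.11 CPM). The endocardial-like cluster held 2108 CPM of Cdh11, 1188 CPM of Npr3 and 559 CPM of Vwf. In the cardiomyocyte-like nuclei with no UMI of any of the 9 markers, Nrg1 was at 3.73 and 5.07 CPM in the controls and 27.9 and 14.5 CPM with YAP5SA, and rose (log2 fold change 2.21, edgeR adjusted p = 0.0456). This left out 38.1% and 47.0% of nuclei in the controls and 53.0% and 46.4% with YAP5SA. The Nrg1 UMIs kept were 49 and 51 in the controls and 302 and 190 with YAP5SA. A nucleus without a marker UMI can still hold RNA of these genes, so their part in the Nrg1 result was not tested.

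By origin, endocardial-like nuclei held 84.5% (exact 95% interval 83.4 to 85.5) and 85.6% (84.9 to 86.3) of all Nrg1 UMIs in the controls. With YAP5SA they held 73.0% (71.9 to 74.1) and 72.3% (71.0 to 73.6). Cardiomyocyte-like nuclei held 2.16% and 1.96% in the controls and 19.0% and 18.0% with YAP5SA. These shares depend also on how many nuclei of each class a library held.

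In the other classes Nrg1 was low and uneven. Fibroblast-like nuclei held 29.9 and 27.7 CPM in the controls and 46.6 and 25.6 CPM with YAP5SA, which overlapped (log2 fold change 0.19, SE 0.28, edgeR adjusted p = 0.700, and -0.32 without the YAP5SA on chow library). Endothelial-like nuclei, where 0% of 10903 genes tested were called in either direction, held 13.5 and 12.8 CPM in the controls and 52.1 and 7.87 CPM with YAP5SA (log2 fold change 1.14, SE 0.70, edgeR adjusted p = 0.559). Of the 60 UMIs behind the 52.1 CPM, 38 came from 1 nucleus, and without that library the log2 fold change was -0.80. Over all genes in this class 1364 had an unadjusted p below 0.05, and DESeq2 called 36 higher and 32 lower; none of the 4 members tested had an unadjusted edgeR p below 0.05. Epicardial-like nuclei held 27.8 and 113 CPM in the controls and 13.3 and 58.0 CPM with YAP5SA, so that both HFD libraries were above both chow libraries. These rest on 15 and 167 UMIs in the controls and 15 and 39 with YAP5SA, and at most 7.27% of epicardial-like nuclei had one or more Nrg1 UMIs. The share of all genes so ordered by diet was not computed. Single nuclei also set the macrophage-like value of the YAP5SA on chow library (86.4 CPM, with 48 of 55 UMIs in 1 nucleus).

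Nrg4 encodes neuregulin 4, a ligand of ERBB4 best known as a secreted factor of brown fat. In cardiomyocyte-like nuclei its level was 10.5 and 10.2 CPM in the controls (248 and 213 UMIs) and 3.40 and 5.05 CPM with YAP5SA (94 and 146 UMIs). Both YAP5SA libraries were below both controls, and Nrg4 fell (log2 fold change -1.36, SE 0.27, edgeR adjusted p = 0.0292). The YAP5SA levels were near those of endocardial-like nuclei, which held 4.53 and 4.37 CPM in the controls and 3.36 and 4.69 CPM with YAP5SA. The call was lost without either control library (edgeR adjusted p = 0.103 without control on chow and 0.0956 without control on HFD) and without the clusters drawn from YAP5SA (-1.26, adjusted p = 0.0556). It was also lost in nuclei without endocardial markers (-1.51, adjusted p = 0.0636). Within cluster 5, shared by all libraries, Nrg4 was at 9.10 and 10.4 CPM in the controls and 6.33 and 11.2 CPM with YAP5SA, which overlapped. In cluster 4, also present in all libraries, it was at 8.63 and 8.64 CPM in the controls and 3.44 and 4.49 CPM with YAP5SA, which did not. Cluster 4 had 191 and 105 nuclei in the controls and 257 and 164 with YAP5SA, so these levels rest on few UMIs. The share of all genes so ordered was not computed within clusters. Fibroblast-like nuclei held 0.93 to 5.89 CPM, and 45 of the 61 UMIs behind the highest value came from 1 nucleus.

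Hbegf (ENSMUSG00000024486), heparin-binding EGF-like growth factor, binds EGFR and ERBB4. It lies at chr18:36504927-36515805 on the minus strand in mm10. In endocardial-like nuclei its level was 4.53 and 10.4 CPM in the controls and 67.2 and 36.6 CPM with YAP5SA. The groups did not overlap, and Hbegf rose (log2 fold change 2.62, SE 0.41, edgeR adjusted p = 0.0106). The counts were 6 and 31 UMIs in the controls and 160 and 86 with YAP5SA. Nuclei with a UMI made up 2.21% and 3.86% in the controls and 10.9% and 7.89% with YAP5SA. Of all genes tested in this class 0.978% rose, and Hbegf was the only one of 6 members tested to do so.

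Fibroblast-like nuclei gave a like result. The Hbegf level was 2.27 and 3.77 CPM in the controls (11 and 39 UMIs) and 16.2 and 14.3 CPM with YAP5SA (87 and 144 UMIs). Again the groups did not overlap, and Hbegf rose (log2 fold change 2.13, SE 0.31, edgeR adjusted p = 0.00406). In this class 7.03% of genes tested rose, and 1 of 6 members tested. Within the fibroblast-like class the level was highest in cluster 1, led by Ltbp2 and Tnc and drawn to 97.6% from YAP5SA, at 24.9 and 19.5 CPM. In cluster 2, led by cell division genes and present in all libraries, it was at 2.43 and 2.65 CPM in the controls and 16.0 and 15.5 CPM with YAP5SA. The controls had only 63 and 101 nuclei in cluster 2, against 299 and 591 with YAP5SA, so the control levels rest on few UMIs. Cluster 0 held 2.60 and 5.29 CPM in the controls and 3.67 and 9.60 CPM with YAP5SA, which overlapped.

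In cardiomyocyte-like nuclei Hbegf was at 11.9 and 11.3 CPM in the controls and 19.1 and 18.8 CPM with YAP5SA. The groups did not overlap, but the difference did not pass the test (log2 fold change 0.64, SE 0.20, edgeR adjusted p = 0.0864). The level was highest in cluster 7, led by Xirp2 and Atf3, at 42.1 and 64.7 CPM with YAP5SA (90 and 43 UMIs) and less in the controls, which had 13 and 7 UMIs there. Immediate early genes, a list of 8 chosen after the values were seen, were summed in the same nuclei, and their part in the Hbegf result was not tested. It was 128 and 254 CPM in the endocardial-like controls and 326 and 166 CPM with YAP5SA, with 1 of 8 genes higher in both YAP5SA libraries. In fibroblast-like nuclei it was 191 and 245 CPM in the controls and 555 and 258 CPM with YAP5SA, with 3 of 8 higher in both, and the sums did not overlap. In cardiomyocyte-like nuclei it was 76.8 and 195 CPM in the controls and 123 and 72.0 CPM with YAP5SA, with 2 of 8 higher in both and 1 lower. Of all genes tested in that class, 58.8% lay with both YAP5SA libraries on one side of both controls. That share was not computed for endocardial-like and fibroblast-like nuclei. Junb, a member of the list and a subunit of the AP-1 factor, was higher in both YAP5SA libraries in all 3 classes. In endocardial-like nuclei Junb was at 16.6 and 15.1 CPM in the controls and 58.4 and 42.2 CPM with YAP5SA. Jun was the 1 lower gene in cardiomyocyte-like nuclei, at 49.2 and 48.8 CPM in the controls and 30.03 and 22.2 CPM with YAP5SA. Its levels overlapped between the arms in endocardial-like and fibroblast-like nuclei.

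**Figure D3:**
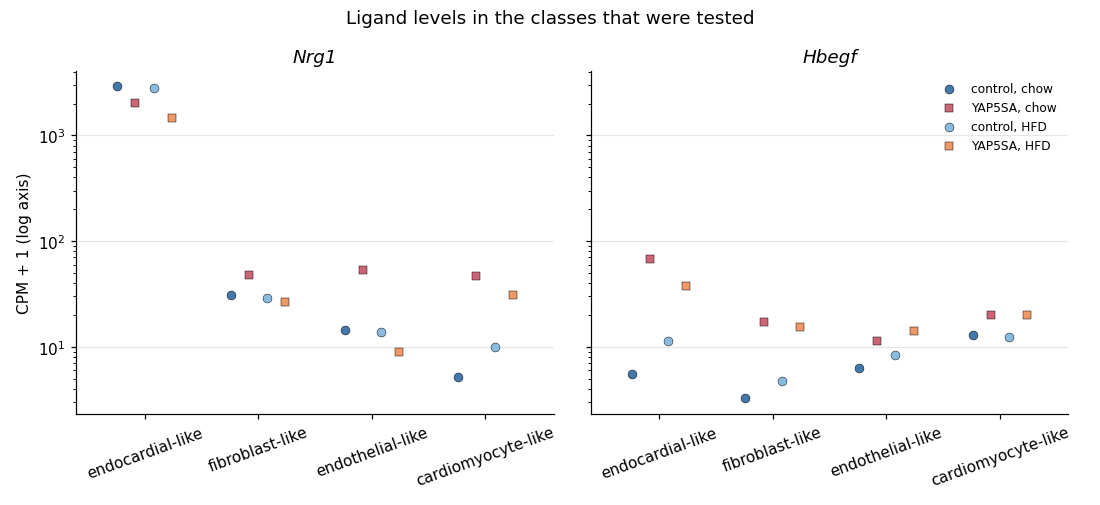
Nrg1 and Hbegf levels (CPM + 1, log axis) in the 4 classes with a vector test; each point is 1 library, circles for control and squares for YAP5SA. Hbegf lies higher with YAP5SA in endocardial-like nuclei (67.2 and 36.6 against 4.53 and 10.4 CPM) and fibroblast-like nuclei (16.2 and 14.3 against 2.27 and 3.77 CPM), and Nrg1 in cardiomyocyte-like nuclei (45.6 and 29.6 against 4.15 and 9.07 CPM).

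Erbb4 encodes the receptor through which neuregulins act on cardiomyocytes. In cardiomyocyte-like nuclei its level was 2061 and 2338 CPM in the controls and 2391 and 2158 CPM with YAP5SA. The groups overlapped and the difference did not pass the test (log2 fold change -0.01, SE 0.20, edgeR adjusted p = 0.974, and 0.049 with libraries scaled by total UMIs). A UMI of Erbb4 was seen in 95.5% to 97.4% of these nuclei, and in 77.8% to 80.6% after thinning to 1000 UMIs. Among clusters the dividing cluster 4 was high, at 2493 and 2453 CPM in the controls and 3117 and 3244 CPM with YAP5SA. The Xirp2 cluster 7 was lower, at 1150 CPM over all libraries.

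Atrial-like nuclei, a small cluster of 14 to 194 nuclei per library, held the highest Erbb4 levels. They are also counted in the cardiomyocyte-like sums. The atrial-like Erbb4 levels are given here apart. These levels were 8437 and 8229 CPM in the controls and 3893 and 3518 CPM with YAP5SA. Both YAP5SA levels were below both control levels, by -1.12 on the log2 scale for the chow pair (95% interval -1.24 to -0.99) and -1.23 for the HFD pair (-1.29 to -1.16). Each of these is a comparison of 2 libraries, with no replicate check, and the control on chow value rests on 14 nuclei.

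Outside cardiomyocytes, Erbb4 was next highest in smooth muscle-like and epicardial-like nuclei. Epicardial-like nuclei held 596 and 634 CPM in the controls and 699 and 647 CPM with YAP5SA, which was 27.1% to 29.98% of the cardiomyocyte-like level, while Myh6 there was at 3.88% to 7.75%. Smooth muscle-like nuclei, 37 to 112 per library, held 887 and 1406 CPM in the controls and 1706 and 884 CPM with YAP5SA, or 41.0% to 71.4% of the cardiomyocyte-like level, with Myh6 at 2.47% to 15.1%. In both classes the Erbb4 share was above that of the cardiomyocyte transcript Myh6 in the same library. Shares of other cardiomyocyte transcripts are not given here, and the source of these Erbb4 UMIs was not tested. Fibroblast-like nuclei held 144 and 171 CPM in the controls and 150 and 189 CPM with YAP5SA (log2 fold change -0.01, SE 0.15, edgeR adjusted p = 0.976, and 0.11 with libraries scaled by total UMIs). Endocardial-like nuclei held 161 and 129 CPM in the controls and 104 and 48.6 CPM with YAP5SA, beside the cardiomyocyte marker sums given above for the same nuclei.

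Erbb2 encodes the partner receptor without a ligand. In cardiomyocyte-like nuclei it was at 9.87 and 5.44 CPM in the controls and 14.6 and 12.6 CPM with YAP5SA. Both YAP5SA libraries were above both controls, but the difference did not pass the test (log2 fold change 0.78, SE 0.32, edgeR adjusted p = 0.170). Its level overlapped between most classes, at 8.09 to 10.6 CPM in endocardial-like, 6.86 to 11.7 CPM in fibroblast-like and 10.1 to 16.7 CPM in epicardial-like nuclei, and lowest in macrophage-like nuclei at 1.08 to 2.58 CPM. In endocardial-like nuclei the log2 fold change was -0.26 (SE 0.39, edgeR adjusted p = 0.846). Nuclei with UMIs of both Erbb4 and Erbb2 made up 5.88% and 3.30% of cardiomyocyte-like nuclei in the controls and 7.43% and 6.33% with YAP5SA. Since nearly all of these nuclei had an Erbb4 UMI, these shares follow that of Erbb2.

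Erbb3 encodes the neuregulin receptor with little kinase activity, best known from Schwann cells. Schwann-like nuclei, 10 to 35 per library, held 108 and 220 CPM in the controls and 150 and 138 CPM with YAP5SA, and 48.1% to 60% of them had a UMI. In cardiomyocyte-like nuclei it was at 11.7 and 11.2 CPM in the controls (275 and 235 UMIs) and 5.25 and 5.81 CPM with YAP5SA (145 and 168 UMIs). The groups did not overlap, and Erbb3 fell (log2 fold change -1.11, SE 0.23, edgeR adjusted p = 0.0316). As for Nrg4, the call was lost without control on chow (edgeR adjusted p = 0.151) or control on HFD (0.145), without the clusters drawn from YAP5SA (-0.76, adjusted p = 0.0805) and in nuclei without endocardial markers (-0.78, adjusted p = 0.142). Fibroblast-like nuclei held 27 UMIs in all, endothelial-like 7 and endocardial-like 2. Epicardial-like nuclei held 7.404 and 8.11 CPM in the controls and 2.65 and 7.44 CPM with YAP5SA, from 3 to 12 UMIs per library, a range that takes in the cardiomyocyte-like levels with YAP5SA.

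Egfr encodes the receptor of EGF, HB-EGF and TGF-alpha, used by fibroblasts and epithelia. Fibroblast-like nuclei held 447 and 462 CPM in the controls and 450 and 453 CPM with YAP5SA, and 64.9% to 68.3% of them had a UMI. The groups overlapped and the difference did not pass the test (log2 fold change -0.13, SE 0.12, edgeR adjusted p = 0.548). Summed over libraries, the fibroblast-like clusters lay between 428 and 512 CPM, and in single libraries between 316 CPM (cluster 1, control on HFD, from 21 nuclei) and 519 CPM. Pericyte-like nuclei followed at 188 to 299 CPM and epicardial-like nuclei at 172 to 241 CPM, and these 2 ranges overlapped. Smooth muscle-like nuclei held 168 to 207 CPM. In cardiomyocyte-like nuclei Egfr was at 2.88 and 4.68 CPM in the controls and 3.91 and 5.15 CPM with YAP5SA (log2 fold change 0.19, SE 0.36, edgeR adjusted p = 0.781, with the sign turned under finer clustering, without control on chow and in nuclei without endocardial markers).

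Over the 7 members in cardiomyocyte-like nuclei, 1 rose (Nrg1), 2 fell (Nrg4 and Erbb3) and 4 did not pass the test. Of the 17007 genes tested in this class 7.27% rose and 3.85% fell. For 5 of the 7 members both YAP5SA libraries lay on one side of both controls, 3 higher and 2 lower, as did 58.8% of all genes tested. The median log2 fold of the members was 0.19 and that of all genes tested 0.04.

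**Figure D4:**
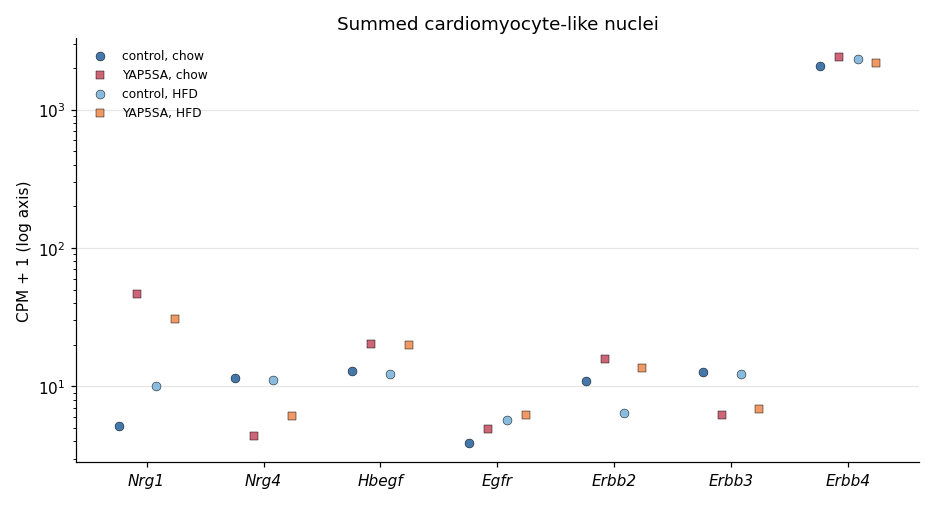
Level of each member (CPM + 1, log axis) in summed cardiomyocyte-like nuclei; each point is 1 library, circles for control and squares for YAP5SA. Nrg1 lies higher with YAP5SA, Nrg4 (3.40 and 5.05 against 10.5 and 10.2 CPM) and Erbb3 (5.25 and 5.81 against 11.7 and 11.2 CPM) lie lower, and the Erbb4 libraries overlap.

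The diet named in the titles gave no call among the members in cardiomyocyte-like nuclei. With the vector arm as a further term and 1 residual degree of freedom, 0 of 7 members passed edgeR's test, and none had an unadjusted p below 0.05. Over all genes 0% were called in either direction, 687 had an unadjusted p below 0.05, and DESeq2 called 18 higher and 3 lower. In single libraries, Nrg1 was higher on HFD in the controls (log2 fold 1.12, 95% interval 0.77 to 1.49) and lower on HFD with YAP5SA (-0.62, -0.75 to -0.50). Of the 190 UMIs in the control on HFD library, 77 came from 1 nucleus, which the interval does not cover. Erbb2 was lower on HFD in the controls (-0.86, -1.20 to -0.53). All are single-library comparisons, and with YAP5SA the chow library was male and the HFD library female.

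Of the rest of the pathway, 80 genes in 4 lists were counted in cardiomyocyte-like nuclei. Among 8 other EGF family ligands, 6 were tested, 2 rose and 1 fell, with a median log2 fold of 0.96, beside 7.27% that rose, 3.85% that fell and a median of 0.04 over all genes tested. Tgfa, transforming growth factor alpha and a ligand of EGFR, was at 3.35 and 1.77 CPM in the controls and 20.7 and 13.3 CPM with YAP5SA, and rose (log2 fold change 2.68, SE 0.41, edgeR adjusted p = 0.0134). Ereg, epiregulin, passed the test at a very low level (edgeR adjusted p = 0.0444), with 0.127 and 0.0955 CPM in the controls, or 3 UMIs or fewer per library, and 0.796 and 0.657 CPM with YAP5SA. Btc, betacellulin, was at 6.95 and 5.49 CPM in the controls and 2.13 and 2.28 CPM with YAP5SA, and fell (log2 fold change -1.56, SE 0.30, edgeR adjusted p = 0.0284). Ligands of EGFR thus moved in both directions. In fibroblast-like nuclei Ereg was at 2.27 and 1.93 CPM in the controls and 23.1 and 10.5 CPM with YAP5SA, and rose (log2 fold change 2.87, edgeR adjusted p = 0.00563), the only call among 3 other ligands tested there. Epicardial-like nuclei held Tgfa at 75.1 to 94.7 CPM and Nrg2, a further neuregulin, at 81.3 to 176 CPM in the 4 libraries.

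**Figure D5:**
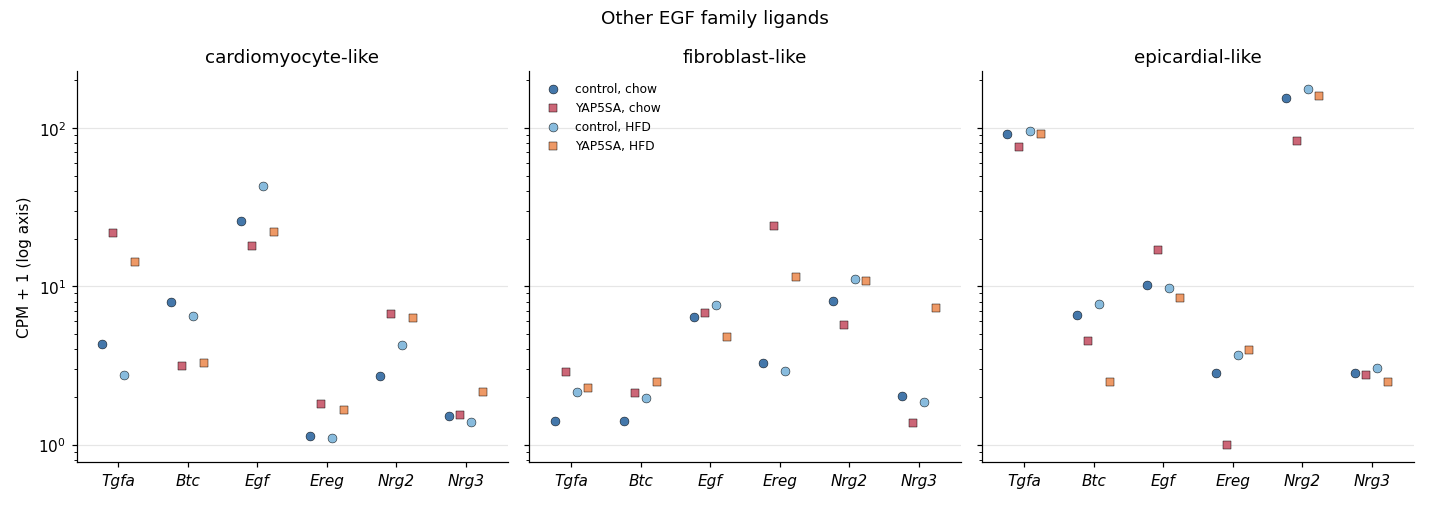
Levels of 6 other EGF family ligands (CPM + 1, log axis) in cardiomyocyte-like, fibroblast-like and epicardial-like nuclei; each point is 1 library, circles for control and squares for YAP5SA. In cardiomyocyte-like nuclei Tgfa lies higher with YAP5SA (20.7 and 13.3 against 3.35 and 1.77 CPM) and Btc lower (2.13 and 2.28 against 6.95 and 5.49 CPM).

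Among 13 ligand and receptor proteases and their partners, 1 rose and 1 fell, with a median log2 fold of 0.25, against 7.27% and 3.85% of all genes. Adam9, a membrane protease able to cleave HB-EGF, was at 39.3 and 36.9 CPM in the controls and 275 and 145 CPM with YAP5SA, and rose (log2 fold change 2.42, SE 0.35, edgeR adjusted p = 0.0112). Rhbdf2, the iRhom that guides the protease ADAM17, was at 9.07 and 10.4 CPM in the controls and 4.92 and 4.36 CPM with YAP5SA, and fell (log2 fold change -1.13, edgeR adjusted p = 0.0454). In fibroblast-like nuclei Rhbdf2 went the other way, from 4.13 and 4.15 CPM in the controls to 33.6 and 12.5 CPM with YAP5SA, and rose (log2 fold change 2.32, edgeR adjusted p = 0.0149). In endocardial-like nuclei Adam15, a disintegrin protease, was at 49.8 and 41.0 CPM in the controls and 105 and 96.3 CPM with YAP5SA, and rose (log2 fold change 1.14, edgeR adjusted p = 0.0156).

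Among 35 adaptors and effectors, 33 were tested, 2 rose and 3 fell, with a median log2 fold of -0.10, against 7.27% and 3.85% of all genes. Pik3cb, a catalytic subunit of PI3 kinase, was at 16.1 and 15.3 CPM in the controls and 95.6 and 72.0 CPM with YAP5SA, and rose (log2 fold change 2.36, SE 0.23, edgeR adjusted p = 0.00393). Akt2, a kinase downstream of PI3 kinase, was at 48.9 and 79.5 CPM in the controls and 31.6 and 28.6 CPM with YAP5SA, and fell (log2 fold change -1.16, edgeR adjusted p = 0.0478). Pik3r3, a regulatory subunit of PI3 kinase, was at 54.8 and 63.3 CPM in the controls and 27.4 and 27.7 CPM with YAP5SA, and fell (-1.17, edgeR adjusted p = 0.0143). Eps8, an actin adaptor phosphorylated by EGFR, also fell (-1.63, edgeR adjusted p = 0.0184). A catalytic and a regulatory subunit of PI3 kinase thus moved in opposite directions.

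Among 24 inhibitors and turnover genes, 3 rose and 1 fell, with a median log2 fold of 0.18, against 7.27% and 3.85% of all genes. Spry1, a Sprouty inhibitor of receptor kinase signalling, was at 2.67 and 2.67 CPM in the controls and 11.8 and 10.2 CPM with YAP5SA, and rose (log2 fold change 1.98, SE 0.27, edgeR adjusted p = 0.0102). Cblb, a ubiquitin ligase, rose from 217 and 185 CPM to 323 and 343 CPM (log2 fold change 0.67, edgeR adjusted p = 0.0492), and the endocytic adaptor Eps15 rose (0.78, adjusted p = 0.0462). Sh3kbp1, a CBL-binding adaptor, was at 229 and 242 CPM in the controls and 106 and 94.9 CPM with YAP5SA, and fell (log2 fold change -1.29, edgeR adjusted p = 0.0100). In fibroblast-like nuclei 23 genes of this list were tested, and 2 rose and 2 fell, beside 1081 that rose and 869 that fell of all 15371 genes. Spry1 fell there instead (-0.65, edgeR adjusted p = 0.0420), as did Spry2 (-0.86, adjusted p = 0.0470). Socs5 (0.58, edgeR adjusted p = 0.0397) and Ptpn1 (0.57, adjusted p = 0.0285) rose. No gene of the adaptor or inhibitor lists passed the test in endocardial-like nuclei (0 of 31 and 0 of 23 tested), where 119 of 12172 genes rose and 170 fell, so that lists of this size say little.

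The genes most like each member over 28 sums (7 classes in 4 libraries) were found by Pearson's r of log2(CPM + 1) among 14567 genes. The sums share libraries and class depth, so the values are descriptions. Nrg1 was most like Sez6l (r = 0.86), Lingo2 (0.85) and Smoc1 (0.84). Egfr was most like Mrc2 (0.97), Aldh1a2 and Adgrl3, and Erbb4 most like Rcan2 (0.96), Rbfox1 and Fxyd1. For Erbb2 the nearest were Sox4 (0.88), Tjp1 and Nfib, and for Erbb3 Flrt1 (0.87), Fgf9 and Pla2g3. Likeness was lower for Hbegf, with Fgfbp3 (0.79), Gm15283 and Ccn4, and for Nrg4, with Exoc3 (0.70), Cdc14b and Atpaf1.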

How the data were processed

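Nuclei from whole hearts were profiled with 10x 3′ snRNA-seq, per the labels. The authors deposited raw UMI counts per gene and barcode, made with Cell Ranger 7.1.0 on mm10, per the submitters' processing notes; no normalised values were used. Barcodes with at least 500 genes and at most 5% mitochondrial UMIs were kept. Doublets were removed with Scrublet (4.51% to 6.93% per library; its automatic threshold failed in both chow libraries, where the top scores were taken). The 4 libraries were clustered together with scanpy 1.11.5 (3000 variable genes, 30 components, 15 neighbours, Leiden resolution 1). Left out of the clustering were 15 EGF family and receptor genes, Xist, Tsix, Y-linked genes, mitochondrial genes and the feature nsp13. Classes were named from marker lists; clusters 11 and 12 (1218 and 51 nuclei) stayed unnamed.

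UMIs were summed per class and library. Sums of at least 200 nuclei per library were tested in R 4.3.3 with edgeR 4.0.16 (TMM scaling, low counts filtered, quasi-likelihood test, 2 libraries per arm), tested first on simulated data. DESeq2 1.42.0 was an alternative. Single-library folds added 0.5 counts to each sum, with exact conditional binomial 95% intervals; shares have Clopper-Pearson exact intervals, and both kinds cover counting error alone. Since separate hearts are not stated, p-values measure the spread between these libraries.

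The members, marker lists and pathway lists were chosen with earlier results of these data known. Named were the 7 members, the pathway genes past the threshold (up to 5 per direction and list, with 1 not reported here) and the 3 genes most like each member. Cluster-leading genes, the 8 immediate early genes and the repeat on nuclei without endocardial markers were chosen after values were seen.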

Additional observations from a re-analysis of the deposited data

Results flagged for a closer look

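Erbb4 in cardiomyocyte-like nuclei was flagged because the vector contrast had opposite signs on the 2 diets. YAP5SA over control gave a log2 fold of 0.21 for the chow pair (95% interval 0.20 to 0.23) and of -0.12 for the HFD pair (-0.13 to -0.10). With 1 library per group the difference was not tested. The HFD value turned to 0.068 without the clusters drawn from YAP5SA. Nrg1 in pericyte-like nuclei was flagged for the same reason, with 2.03 for the chow pair (0.21 to 4.29) and -1.91 for the HFD pair (-3.27 to -0.89). These rest on 4 and 50 UMIs in the controls and 8 and 8 with YAP5SA, and 36 of the 50 came from 1 nucleus. This difference was not tested either.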

How the results depend on the processing

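No paired analysis was possible because each group has 1 library and no replicate number pairs libraries across groups; the diet in the titles was added as a term instead, which changed no call among the member folds given here (cardiomyocyte-like Nrg1 2.50, edgeR adjusted p = 0.0157). Of 197 alternative log2 folds of members in the fits, 168 kept direction and side of the threshold, 4 crossed to a call, 10 lost one and 15 turned sign. Of 244 single-library folds, 202 stayed within their counting interval, 36 moved and 6 turned sign. The causes of the changes were not tested.

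Counts of genes called moved with the setting. In cardiomyocyte-like nuclei 1237 rose and 655 fell. With no filter on low counts 1870 rose and 1155 fell, and in nuclei without endocardial markers 406 rose and 148 fell. Scaling by total UMIs alone gave 404 that fell and DESeq2 gave 1065. Leaving out 1 library gave 629 to 1522 that rose and 220 to 962 that fell. In fibroblast-like nuclei (1081 and 869) no filter gave 1721 and 1427, and leaving out 1 library gave 487 to 1852 and 447 to 1429. In endothelial-like nuclei (0 and 0) DESeq2 gave 36 and 32, no filter 320 and 420, diet as a term 162 and 215, and doublets kept 3 that rose; leaving out 1 library gave 15 to 168 and 2 to 283. In endocardial-like nuclei (119 and 170) no filter gave 395 and 465, the stricter nucleus filter 15 and 27 and doublets kept 50 and 41; leaving out 1 library gave 162 to 506 and 171 to 545. For HFD against chow (0 and 0) DESeq2 gave 18 and 3 and no filter 2 and 4, and with a library left out the model could not be fitted, since no residual degree of freedom remained. The mean Nrg1 level in endocardial-like nuclei was 2297 CPM, and 3231 CPM under the stricter nucleus filter, which gave no fitted value for Hbegf there.

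Signs turned for small folds. Cardiomyocyte-like Egfr went to -0.29 with finer clustering and -0.047 in nuclei without endocardial markers, with -0.15 to 0.60 on leaving out 1 library. Cardiomyocyte-like Erbb4 went to 0.049 with total UMIs, 6.49e-05 with finer clustering and 0.025 without the atrial-like cluster, with -0.20 to 0.12 on leaving out 1 library. Fibroblast-like Erbb4 went to 0.11 with total UMIs, 0.17 with finer clustering and 0.022 with doublets kept, with -0.17 to 0.12 on leaving out 1 library. On leaving out 1 library, Nrg1 ranged from -0.32 to 0.60 in fibroblast-like and -0.80 to 1.94 in endothelial-like nuclei. Among single-library folds, the stricter filter turned endocardial-like Erbb4 with YAP5SA on chow to 0.12 and Nrg1 for HFD over chow with YAP5SA to 0.35. Without the clusters drawn from YAP5SA, cardiomyocyte-like Erbb4 with YAP5SA on HFD turned to 0.068, and for HFD over chow with YAP5SA Erbb2 turned to 0.068 and Erbb4 to 0.23. TMM scaling turned fibroblast-like Erbb4 with YAP5SA on HFD to -0.023. Members with few UMIs, such as Erbb3 and Nrg4 outside cardiomyocytes, are limited by depth.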

Other observations

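Schwann-like nuclei of the control on chow library held Nrg1 at 1355 CPM, but all 113 UMIs came from 1 of 10 nuclei.

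A feature named nsp13, listed without a mouse gene ID, had 0 and 1 UMIs in cardiomyocyte-like nuclei of the controls on chow and HFD and was at 16.4 and 6.19 CPM with YAP5SA.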
